A study of Mus musculus with 21 samples.

Results

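NF-kB is a family of transcription factors that act as pairs of subunits and are held in the cytoplasm by IkB proteins until a receptor signal leads the IKK kinases to mark the inhibitor for destruction. The canonical arm, downstream of TNF, interleukin-1 and Toll-like receptors, frees pairs that contain RelA, whereas the non-canonical arm, downstream of receptors such as the lymphotoxin beta receptor, processes the Nfkb2 product and frees pairs that contain RelB. Many genes that NF-kB switches on encode its own subunits, its inhibitors and the enzymes that end the signal, and in the injured kidney the pathway is known for driving chemokine and adhesion molecule expression. The genes described here are 10 such subunits and feedback regulators, namely Nfkb1, Nfkb2, Rela, Relb, Nfkbia, Nfkbie, Nfkbiz, Bcl3, Tnfaip3 and Birc3. They were chosen by name, with earlier results of these data known, as were the other gene lists below. They were found by gene symbol, and all 10 of the 10 listed genes were among the 20634 genes measured in both count tables of the series.

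Kidney RNA was sequenced from individual female apoE knockout mice on the C57BL/6J background, which were 4 weeks old when the diets began and 18 weeks old at collection after 14 weeks of feeding. The Con group (5 mice) received chow, the Ade group (6 mice) chow with adenine, which injures the tubules and is used to induce chronic kidney disease (CKD), and the Ade + IMC group (6 mice) adenine with iodomethylcholine, an inhibitor of the bacterial enzymes that make trimethylamine, the precursor of trimethylamine N-oxide (TMAO). All mice, the Con group included, lack apoE and are prone to high plasma cholesterol, so no kidney with an intact Apoe gene was compared. The 4 mice given IMC without adenine (Con + IMC) were not analysed here, and an effect of IMC on the control diet was therefore not measured.

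The total count per mouse was 7716126 to 11680809 in the Con group, 5444833 to 7673215 in the Ade group and 5728589 to 8305968 in the Ade + IMC group. Levels are given as CPM, the count of a gene scaled to a common library total after adjusting all 17 libraries by edgeR's TMM method, and the SD of such levels holds counting error and the spread between animals together. Markers of proximal tubule, of other nephron segments and of endothelium were present in every group, as the kidney label requires. The summed level of 7 proximal tubule markers was 14506 to 20222 CPM in the Con mice, 2173 to 8508 CPM in the Ade mice and 3646 to 7855 CPM in the Ade + IMC mice. The sum of 5 general leukocyte markers was 114 to 129, 548 to 1174 and 433 to 1652 CPM in the same order. The RNA came from whole kidney, so that fewer cells of a type and less RNA per cell cannot be told apart for any gene given here.

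Of the 10 genes, 7 had promoter windows in the RefSeq table for GRCm38.p6, each covering 250 bases before to 50 bases after a transcription start, and Nfkb1, Relb and Nfkbiz had none. Parts of these windows are shown because several of these genes are textbook examples of genes regulated by NF-kB itself. The kB motif searched was the 10-base consensus that opens with a run of G, continues with a purine, an open centre and pyrimidines, and closes with C. Both strands were read. It was found in at least 1 window of 5 of the 7 genes (Bcl3, Nfkb2, Nfkbia, Nfkbie and Tnfaip3) and in no window of Birc3 and Rela, while 9.55% of all 27025 genes with a window held it (8.46% of 32851 windows). The stretches below are written 5′ to 3′ on the strand of the gene, and capitals mark the motif.
Nfkbia: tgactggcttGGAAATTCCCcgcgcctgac
Nfkbie: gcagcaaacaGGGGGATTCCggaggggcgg
Bcl3: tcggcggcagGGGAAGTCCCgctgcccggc
Tnfaip3 (upstream motif): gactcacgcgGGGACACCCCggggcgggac
Tnfaip3 (motif next to the start): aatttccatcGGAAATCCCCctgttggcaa
Nfkb2 (upstream motif, with 2 overlapping matches): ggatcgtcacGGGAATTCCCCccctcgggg
Nfkb2 (motif next to the start): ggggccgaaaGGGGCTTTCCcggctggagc
Nfkb2 (further start, upstream motif): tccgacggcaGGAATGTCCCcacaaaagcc
Nfkb2 (further start, downstream): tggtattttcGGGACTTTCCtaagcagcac

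In the order printed, these stretches lie at chr12:55492657-55492686 (minus strand), chr17:45555584-45555613 (plus), chr7:19822734-19822763 (minus), chr10:19015516-19015545 (minus), chr10:19015403-19015432 (minus), chr19:46304688-46304717 (plus), chr19:46304716-46304745 (plus), chr19:46305449-46305478 (plus) and chr19:46305695-46305724 (plus) of GRCm38. By the GENCODE annotation of the same build, the Nfkbia and Nfkbie motifs lie before the annotated gene. The Bcl3 motif and 3 of the 4 Nfkb2 stretches have their motif over an untranslated part of an exon of at least 1 transcript, while the motif upstream of the further Nfkb2 start lies in an intron and those of Tnfaip3 in an intron of a longer transcript. The first base of the motif is 29 bases before the RefSeq start in Nfkbia, 106 bases before it in Nfkbie, and 125 and 12 bases before it in Tnfaip3. A match of these letters is a description of the sequence and no measure of binding in these kidneys.

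The first comparison asked what the adenine diet did to these genes. All 10 were higher in the Ade group than in the Con group, with a median fold change of 4.21 and a range from 1.88-fold for Rela to 8.23-fold for Bcl3. Each passed edgeR's quasi-likelihood test at a Benjamini-Hochberg adjusted p below 0.1 over 14612 genes (adjusted p from 4.82e-08 to 7.33e-06). In this comparison 35.1% of all genes tested were called higher, and the median log2 fold change over all genes was 0.02 against 2.07 over the 10 genes. Every Ade mouse was above every Con mouse for 10 of the 10 genes, which held for 22.4% of all genes tested. The genes were not the most changed of the kidney, since each exceeded the log2 fold change of 83.1% (Rela) to 96.5% (Bcl3) of the genes tested.

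**Figure D1:**
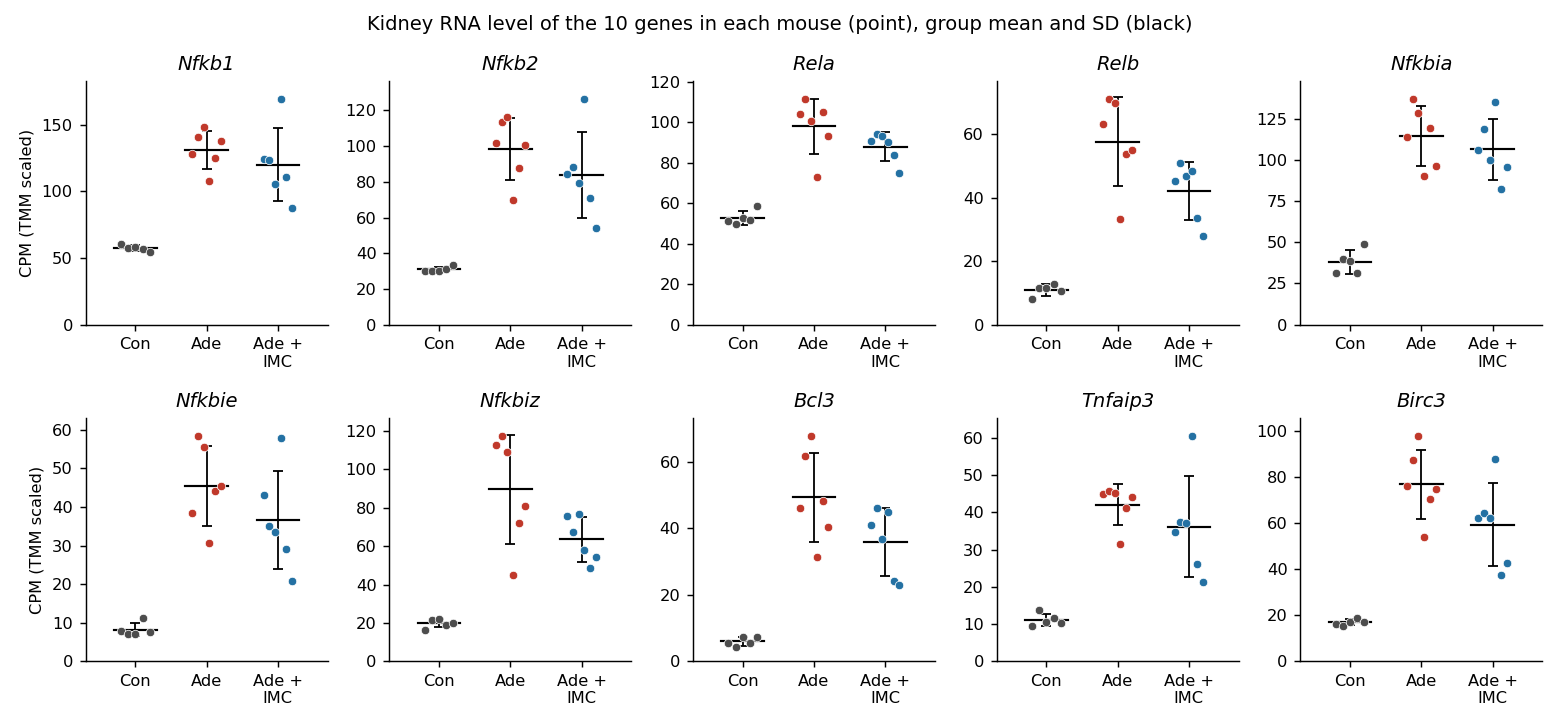
CPM (TMM-scaled, linear axes from 0) of each of the 10 genes in every Con, Ade and Ade + IMC mouse (points), with the group mean and SD in black. For all 10 genes the lowest adenine-fed mouse lies above the highest Con mouse, while the Ade and Ade + IMC mice overlap.

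The Rel subunits carry the transactivation domain of the family. Rela, the subunit of the canonical arm, was at 49.7, 51.3, 52.0, 52.8 and 58.8 CPM in the Con mice and at 73.2 to 111 CPM (median 102) in the Ade mice. The fitted change was 1.88-fold (log2 0.91 ± 0.10 SE, edgeR adjusted p = 7.33e-06), the smallest of the 10. Relb, its counterpart in the non-canonical arm, was scarcer in the Con mice, at 8.07, 10.7, 11.5, 11.7 and 12.7 CPM. It reached 33.1 to 71.0 CPM (median 59.1) in the Ade mice, a 5.38-fold rise (log2 2.43 ± 0.19 SE, edgeR adjusted p = 2.96e-07). The lowest Ade mouse was mouse 407 for both genes, and it was still above all Con mice.

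Nfkb1 and Nfkb2 encode precursors that are cut to the DNA-binding partners of the Rel subunits and that also act as inhibitors before they are cut. Nfkb1 was nearly constant in the Con mice, at 54.7, 56.5, 57.6, 58.2 and 60.5 CPM, and stood at 108 to 148 CPM (median 133) in the Ade mice. Its rise was 2.32-fold (log2 1.21 ± 0.09 SE, edgeR adjusted p = 1.26e-07). Nfkb2 was at 29.8, 30.1, 30.2, 31.4 and 33.2 CPM in the Con mice and at 69.7 to 116 CPM (median 101) in the Ade mice, 3.23-fold higher (log2 1.69 ± 0.12 SE, edgeR adjusted p = 1.53e-07). The precursor of the non-canonical arm thus showed the larger fold change of the pair, as Relb did beside Rela. Of the exonic bases of Nfkb2, 830 lie opposite exons of Psd or of an unnamed gene, and whether the counting used strand is not given in the sources used here.

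Nfkbia and Nfkbie encode classical IkB inhibitors that hold NF-kB outside the nucleus and are themselves induced by it. Nfkbia was at 31.1, 31.3, 38.6, 39.7 and 49.1 CPM in the Con mice and at 90.2 to 137 CPM (median 117) in the Ade mice, a 3.06-fold rise (log2 1.61 ± 0.15 SE, edgeR adjusted p = 9.13e-07). Nfkbie was at 7.18, 7.22, 7.58, 7.77 and 11.2 CPM in the Con mice and at 30.7 to 58.4 CPM (median 44.7) in the Ade mice. This was a 5.64-fold rise (log2 2.49 ± 0.18 SE, edgeR adjusted p = 1.43e-07). The Con mouse with 11.2 CPM, mouse 302, stood apart from the other 4 but below the lowest Ade mouse.

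Nfkbiz and Bcl3 encode nuclear IkB proteins, which bind the subunits on DNA and modulate transcription there. Bcl3 had the largest fold change of the 10 genes. It was at 4.48, 5.46, 5.55, 7.45 and 7.45 CPM in the Con mice, from 31 to 57 counts each, and at 31.5 to 67.8 CPM (median 47.2) in the Ade mice. The rise was 8.23-fold (log2 3.04 ± 0.22 SE, edgeR adjusted p = 1.10e-07). Nfkbiz was at 16.6, 19.1, 20.1, 21.5 and 21.9 CPM in the Con mice and rose 4.59-fold (log2 2.20 ± 0.22 SE, edgeR adjusted p = 2.59e-06). Its Ade mice were the most spread of all 10 genes, from 45.0 to 117 CPM (median 95.1), and fell into a higher range of 109 to 117 CPM (mice 207, 208 and 308) and a lower one of 45.0 to 81.0 CPM (mice 407, 408 and 409). Of the exonic bases of Bcl3, 161 lie opposite another gene, Gm16175.

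Tnfaip3 and Birc3 encode enzymes of the ubiquitin system that act close to the receptors. The Tnfaip3 product edits ubiquitin chains and ends canonical signalling, and the Birc3 product is a ubiquitin ligase that works in the TNF receptor complex and keeps the non-canonical kinase Map3k14 low. Tnfaip3 was at 9.59, 10.2, 10.6, 11.6 and 13.7 CPM in the Con mice and at 31.4 to 45.7 CPM (median 44.5) in the Ade mice, 3.86-fold higher (log2 1.95 ± 0.13 SE, edgeR adjusted p = 5.22e-08). The Ade mice other than mouse 407 lay within 41.2 to 45.7 CPM. Birc3 was at 15.5, 16.1, 17.2, 17.2 and 18.7 CPM in the Con mice and at 53.8 to 97.9 CPM (median 75.5) in the Ade mice, a 4.61-fold rise (log2 2.20 ± 0.14 SE, edgeR adjusted p = 4.82e-08).

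Mouse 407 was the lowest Ade mouse for 10 of the 10 genes, and mouse 208 the highest for 6 and mouse 308 for 4. With mouse 407 or any other single mouse left out, all 10 genes were still called higher. Taken within mice whose number shares its leading digit (2, 3 or 4, whose meaning the labels do not give), the Ade minus Con difference in mean log2 CPM was above 0 in 30 of 30 gene-by-digit values, from 0.60 to 3.36. The macrophage sum (6 markers) was 188 to 228 CPM in the Con mice and 1232 to 2024 CPM in the Ade mice. Mouse 407 was the lowest Ade mouse in the macrophage and fibroblast sums and the highest in the proximal tubule sum (8508 CPM), but lay inside the range of the other Ade mice in the leukocyte, T cell, B cell, neutrophil and plasma cell sums. All 5 leukocyte, all 6 macrophage, all 6 T cell, all 5 B cell, all 3 measured neutrophil and all 5 fibroblast markers were called higher, and all 7 proximal tubule markers lower. Of 4 plasma cell markers 3 were called higher and of 6 markers of other nephron segments 3 lower, where 35.1% of all genes were called higher and 32.2% lower. In the same test 3 of 5 endothelial markers were called lower and 1 of 2 fat cell markers tested higher. The endothelial sum (5 markers) was 405 to 638 CPM in Con and 266 to 523 CPM in Ade mice, and the fat cell sum (4 markers) was 40.1 to 89.4 CPM in Con, 48.7 to 299 CPM in Ade and 42.4 to 1153 CPM in Ade + IMC mice. The part of these cell types in the rise of the 10 genes was not tested.

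Levels can be set beside each other between genes only per length of transcript, and RPKM (CPM per kilobase of annotated exon) was used for this. The length merged the exons of all annotated transcripts of a gene, which can exceed the transcript present and then lowers the level. It was 12061 bases for Nfkb1, 7226 for Tnfaip3 and 4584 for Nfkb2, so the order below depends on the annotation. In the Con kidneys Nfkbia had the highest level (23.6 ± 4.60 RPKM, SD, n = 5), followed by Rela (17.2 ± 1.14), Nfkb2 (6.75 ± 0.31) and Nfkb1 (4.77 ± 0.18), and the ranges of these neighbours did not overlap. From Nfkbiz (3.95 ± 0.43 RPKM) through Birc3, Relb, Nfkbie and Bcl3 down to Tnfaip3 (1.54 ± 0.22 RPKM), each gene overlapped the next in the order. In the Ade kidneys Nfkbia (70.9 ± 11.2 RPKM, n = 6) and Rela (31.9 ± 4.41 RPKM) kept the first places, while Bcl3 moved from the ninth place to the fourth (2.45 ± 0.53 to 19.9 ± 5.45 RPKM) and Nfkb1 from the fourth to the ninth (10.9 ± 1.18 RPKM). From Rela to Nfkb1 in this order, neighbouring genes overlapped. Tnfaip3 remained the lowest of the 10 in each group, at 5.82 ± 0.76 RPKM in Ade and 5.01 ± 1.88 RPKM in Ade + IMC kidneys, although it overlapped Nfkb1 in the latter.

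Because the genes rose by unequal amounts, the balance between them was compared as the log2 ratio of 2 genes within the same mouse, taken as log2(CPM + 0.5), so that the scaling of a library bears little on it. The 5 pairs set a non-canonical against a canonical gene (Relb/Rela and Nfkb2/Nfkb1) or a feedback gene against a subunit (Nfkbia/Rela, Tnfaip3/Rela and Bcl3/Nfkb1). The pairs were chosen with the fold changes of these genes known, each with the gene of the larger rise on top, so their Ade against Con values are a description without a test. All 5 ratios were higher in the Ade group, and in each pair every Ade mouse was above every Con mouse. The log2 Relb/Rela ratio was −2.24 ± 0.26 (SD, n = 5) in Con and −0.79 ± 0.22 (n = 6) in Ade kidneys, a 2.72-fold shift. The log2 Bcl3/Nfkb1 ratio moved from −3.16 ± 0.31 to −1.44 ± 0.28 (3.30-fold), and Tnfaip3/Rela from −2.21 ± 0.25 to −1.21 ± 0.10 (2.0-fold). Nfkb2/Nfkb1 had the smallest shift, from −0.88 ± 0.11 to −0.43 ± 0.12 (1.37-fold), and Nfkbia/Rela moved from −0.49 ± 0.22 to 0.22 ± 0.12 (1.63-fold).

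**Figure D2:**
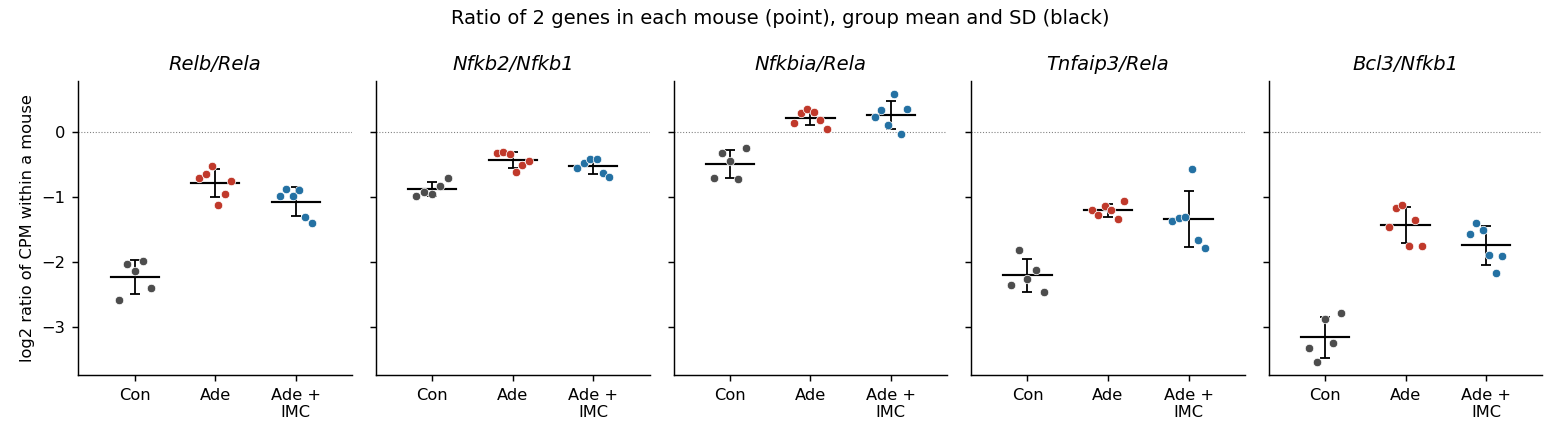
Log2 ratio of the CPM of 2 genes within each Con, Ade and Ade + IMC mouse (points) for 5 gene pairs, with the group mean and SD in black and a dotted line at equal CPM. Every Ade mouse is above every Con mouse in each pair, and the Ade + IMC mice overlap the Ade mice.

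Around these genes, the other components of the pathway were measured from a list of 57 genes, all of which were tested. Of them, 34 were higher and 12 lower in Ade than in Con kidneys and 11 did not pass the edgeR test, with a median fold change of 1.504. Over all genes tested 35.1% were called higher and 32.2% lower. The IKK and TBK1 kinases and their partners did not rise as a group, with 1 of 9 called higher, 3 lower and a median log2 fold change of 0.00. The gene called higher was Ikbke, an IKK-related kinase, from 9.13 ± 1.25 to 46.6 ± 12.7 CPM (5.18-fold, edgeR adjusted p = 2.94e-07). Chuk, which encodes the catalytic kinase of the non-canonical arm, fell from 189 ± 21.3 to 110.3 ± 16.5 CPM (0.59-fold, edgeR adjusted p = 5.48e-05), and Tab3, a partner of the kinase upstream of IKK, fell to 0.70-fold (edgeR adjusted p = 0.00283).

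In the non-canonical arm 11 of 12 genes were called higher (35.1% of all genes) and 1 lower (32.2% of all genes), with a median log2 fold change of 1.31. Ltb, a subunit of the ligand of the lymphotoxin beta receptor, rose from 1.16 ± 0.53 to 23.4 ± 11.0 CPM (20.46-fold, edgeR adjusted p = 5.67e-07). Tnfrsf13c, the BAFF receptor of B cells, had at most 1 count in any Con mouse and 3.70 ± 3.09 CPM in the Ade mice, and was called higher. Both genes are known from lymphocytes. Otud7b, a deubiquitinase that restrains this arm, was the gene called lower, at 0.86-fold (edgeR adjusted p = 0.0292).

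Of 19 adaptors and receptor-proximal kinases 14 were higher and 3 lower, where 35.1% of all genes tested were called higher and 32.2% lower. Traf1, an adaptor of TNF receptors, rose 8.15-fold (edgeR adjusted p = 4.59e-07). The largest falls were small, 0.85-fold for Ripk1 (edgeR adjusted p = 0.0825) and 0.89-fold for Traf6 (edgeR adjusted p = 0.0703), which encode a kinase and a ubiquitin ligase at the receptors. Of the exonic bases of Ripk1, 511 also belong to exons of Gm17084 on the same strand. Of 12 other brakes and deubiquitinases 6 were higher and 4 lower, near the share of all genes for those lower (32.2%). Zc3h12a, which encodes an RNase that degrades inflammatory mRNAs, rose 2.60-fold (edgeR adjusted p = 6.34e-06). Tnip3, whose product binds that of Tnfaip3, had at most 2 counts in any Con mouse and was called higher at 2.78 ± 1.15 CPM in the Ade mice. Itch, a ubiquitin ligase that works with the Tnfaip3 product, fell to 0.58-fold (edgeR adjusted p = 0.000110), and its partner Rnf11 fell to 0.55-fold (edgeR adjusted p = 9.60e-05). Tnip3, Zc3h12a, Itch and Rnf11 were named as the largest rises and falls among the 12, so they are no tally of partners of the Tnfaip3 product.

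Among 5 other subunits and inhibitors, 2 were higher, 1 was lower and 2 were not called. Over all genes tested 35.1% were called higher and 32.2% lower, so these counts do not set the 5 genes apart. Nfkbid, a further nuclear IkB, rose from 1.76 ± 0.29 to 13.1 ± 4.89 CPM (7.49-fold, edgeR adjusted p = 2.57e-06). Rel, the subunit most used by lymphoid cells, rose 2.23-fold from a low level of 2.16 ± 0.55 CPM (edgeR adjusted p = 0.00225). Nkiras1, whose product binds IkB proteins and slows their degradation, fell to 0.71-fold (edgeR adjusted p = 0.000366). Of its exonic bases, 823 lie opposite exons of Rpl15 or Ube2e1, and whether the counting used strand is not given in the sources used here.

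Of 38 textbook NF-kB target genes 33 were tested, 27 of them higher (35.1% of all genes) and 6 lower (32.2% of all genes), with a median fold change of 4.94. Cxcl5, a chemokine for neutrophils, had 0 counts in all 5 Con mice and 13.4 ± 5.46 CPM in the Ade mice, at least 30.8-fold higher than 3 counts would give in the Con library where they weigh most. The median stayed at log2 2.30 with this gene set to its bound. Lcn2, a lipocalin of injured tubules, rose from 3.01 ± 1.33 to 370.1 ± 188 CPM (edgeR adjusted p = 7.97e-08). The targets did not all move one way, since Sod2, the mitochondrial superoxide dismutase, fell to 0.46-fold (edgeR adjusted p = 4.32e-05) and the count listed for Cfb, complement factor B, fell to 0.38-fold (12.5 ± 2.16 to 4.62 ± 1.62 CPM, edgeR adjusted p = 0.000119). Of the 2825 exonic bases of Cfb, 2246 also belong to exons of Gm20547 on the same strand, so the Cfb value is uncertain, since how reads common to both genes were assigned is not given in the sources used here.

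**Figure D3:**
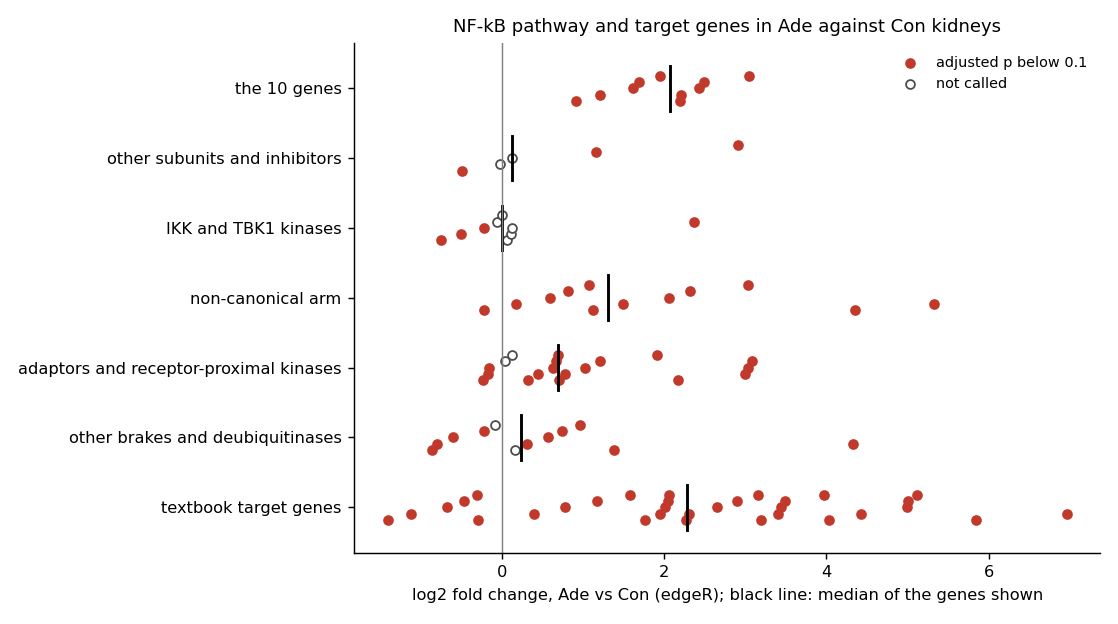
Log2 fold change, Ade against Con, of the 10 genes, of 57 other pathway genes by role and of 32 of the 33 textbook targets tested (1 point a gene; filled, adjusted p below 0.1; black line, median of the genes shown). Cxcl5, at 0 counts in all Con mice, is left out, and Tnfrsf13c and Tnip3 rest on at most 2 counts in a Con mouse. The 10 genes all lie above 0, while the IKK and TBK1 kinases centre on 0.

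The second comparison asked whether IMC changed these genes in kidneys of adenine-fed mice. Of the 10 genes 0 were called by limma on log2(normalized count + 1) when Ade + IMC kidneys were set against Ade kidneys. Of all 14696 genes tested 0 (0%) passed a Benjamini-Hochberg adjusted p below 0.1, and 988 (6.72%) had an unadjusted p below 0.05. By edgeR on the recovered reads 0 genes were called (985 at an unadjusted p below 0.05) and by DESeq2 37, none of them among the 10. The study reports far more changed genes for this comparison, by DESeq2 at the same threshold. The cause of this difference was not tested. All 10 genes had a fitted log2 fold change below 0, from −0.47 (Bcl3) to −0.12 (Nfkbia), as had 48.4% of all genes tested. The 10 genes varied together from mouse to mouse, as given further on, so their shared sign is not 10 separate results. The limma adjusted p was 0.717 to 0.887 over the 10 genes. Relb alone of them had an unadjusted p below 0.05 in this limma test.

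Relb was at 205 to 378 normalized counts (median 342) in the Ade + IMC mice and at 247 to 534 (median 441) in the Ade mice. The fitted ratio was 0.73-fold, with a 95% interval from 0.55 to 0.98. Bcl3 was at 167 to 341 normalized counts (median 290) against 235 to 511 (median 349), at 0.72-fold with an interval from 0.52 to 1.004. For both genes the Ade + IMC mice overlapped the Ade mice, and mice 410 and 412 were the lowest of the 6.

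Nfkbiz was at 355 to 567 normalized counts (median 467) in the Ade + IMC mice against 335 to 883 (median 713) in the Ade mice, at 0.73-fold with an interval from 0.53 to 1.01. Birc3 was at 273 to 658 normalized counts (median 463) against 401 to 738 (median 563), at 0.75-fold with an interval from 0.56 to 1.01. The upper bounds of these intervals lie just above no change.

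For the other 6 genes the fitted ratio was closer to 1. It was 0.78-fold for Nfkbie (interval 0.56 to 1.09), 0.81-fold for Tnfaip3 (0.60 to 1.11) and 0.83-fold for Nfkb2 (0.63 to 1.09). It was 0.89-fold for Nfkb1 (0.73 to 1.10), 0.90-fold for Rela (0.77 to 1.04) and 0.92-fold for Nfkbia (0.76 to 1.12). A ratio of 1 lay within each of these intervals, as did losses larger than the fitted ones.

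The spread of the Ade + IMC group came from mice at either end. Mouse 311 was the highest of its group for 6 genes, among them Tnfaip3 at 60.5 CPM, where the other 5 Ade + IMC mice were at 21.3 to 37.3 CPM, and Nfkb2 at 126 CPM. Mouse 412 was the lowest for 7 genes and mouse 410 for the other 3. Mouse 311 also had the highest leukocyte sum of all mice (1652 CPM, next highest 1174 in Ade mouse 308), the highest B cell sum (303 CPM, 5 markers) and the highest plasma cell sum (2930 CPM, 4 markers). Mouse 412 had the lowest leukocyte and macrophage sums of its group (433 and 1122 CPM). The part of these cells in the values of the 10 genes was not tested. Without mouse 311 the limma adjusted p of the 10 genes was 0.448 to 0.552 and 7 of them had an unadjusted p below 0.05, as had 10.8% of all genes. Without Ade mouse 407 the limma adjusted p was 0.185 to 0.599, and 5 of the 10 had an unadjusted p below 0.05, as had 12.9% of all genes. With any of the other 10 mice left out, the limma adjusted p was 0.662 to 0.996 and 0 to 3 of the genes were below 0.05 unadjusted, against 4.19% to 7.52% of all genes. The count was 0 without Ade mouse 207, 208 or 308 and without Ade + IMC mouse 410 or 412.

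The leading digit of the mouse number set some mice of a group apart, and limma was also run with it as a block. Mice 407, 410 and 412, the lowest of their groups, share the digit 4, which 3 of 6 Ade and 2 of 6 Ade + IMC mice carry. With this block limma called 133 genes, 60 of them lower (0.408% of 14696), and among the 10 genes 3 were called lower in Ade + IMC. These were Bcl3 (0.66-fold, limma adjusted p = 0.0861), Relb (0.68-fold, limma adjusted p = 0.0883) and Birc3 (0.69-fold, limma adjusted p = 0.0883). Nfkbiz had the same size of difference (0.68-fold, limma adjusted p = 0.129) but did not pass. Within the digits, the Ade + IMC minus Ade difference was below 0 in all 3 digits for 9 of the genes, and for Tnfaip3 it was −0.34, 0.05 and −0.73 log2 units in digits 2, 3 and 4. The digit 3 value rests on 1 Ade mouse, and since the labels do not say what the digit stands for, the call of these 3 genes depends on taking it as a batch. In the same blocked fit 1 gene of the marker lists was called, Aqp2, the water channel of the collecting duct, at 1.75-fold (limma adjusted p = 0.0602, where 0.497% of all genes were called higher). At an unadjusted p below 0.05 in this limma fit, 5 of 7 proximal tubule, 3 of 6 other nephron and 4 of 5 endothelial markers were higher in Ade + IMC and 2 of 6 macrophage markers lower. Of the fibroblast markers 1 was higher and 1 lower and of the fat cell markers 1 was higher, with 0 of the leukocyte, T cell, B cell, plasma cell and neutrophil markers past it. At this threshold 7.4% of all genes were higher and 6.26% lower, and of the 10 genes 8 were lower. The part of these cells in the 3 calls was not tested.

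**Figure D4:**
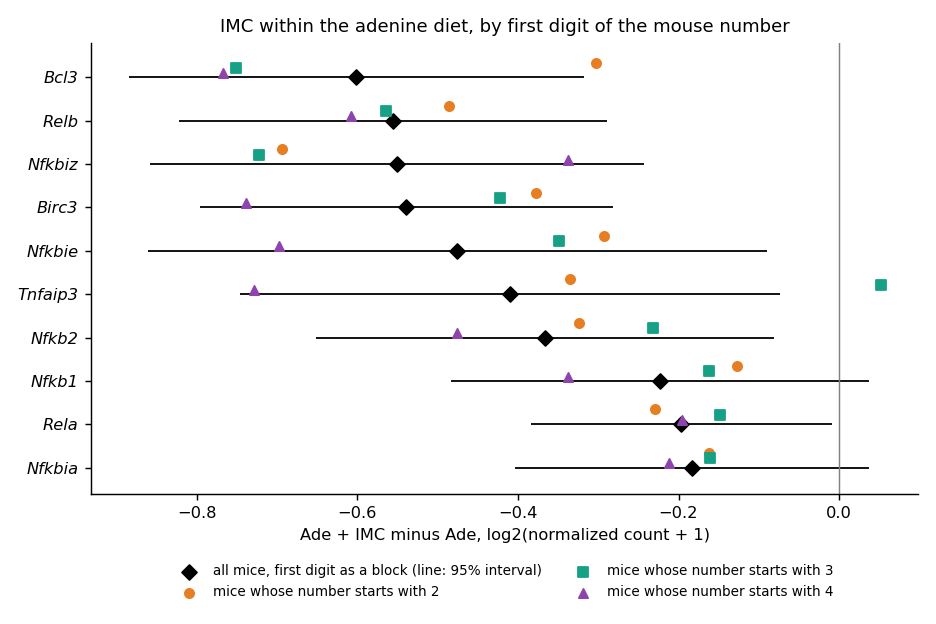
Ade + IMC minus Ade difference in log2(normalized count + 1) of the 10 genes, from limma blocked on the leading digit of each mouse's number (diamonds, line: 95% interval) and within mice of each digit (coloured symbols, 1 to 3 mice a group). All values lie below 0 apart from Tnfaip3 in digit 3, and the intervals of Nfkb1 and Nfkbia include 0.

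The same 5 ratios were compared between the Ade + IMC and the Ade mice. The pairs were chosen with the Ade values known, and the same Ade mice enter here, so the differences can lean below 0. The log2 Relb/Rela ratio was −1.08 ± 0.22 (SD, n = 6) in Ade + IMC and −0.79 ± 0.22 (n = 6) in Ade kidneys, a shift to 0.82-fold (two-sided exact permutation p = 0.0498). Its adjusted p was 0.0830 over 10 tests, 5 of which are the Ade against Con ratios whose direction the choice of pairs fixed, and this call was lost when any of 8 single mice was left out. Adjusted over the 5 ratios of Ade + IMC against Ade alone, a choice made after seeing the data, the exact permutation p was 0.233, so Relb/Rela is not taken as changed. Bcl3/Nfkb1 was −1.75 ± 0.29 against −1.44 ± 0.28 (exact permutation p = 0.0931, adjusted p = 0.233 over the 5 ratios). Nfkb2/Nfkb1 (0.93-fold), Nfkbia/Rela (1.03-fold) and Tnfaip3/Rela (0.91-fold) gave adjusted p of 0.256, 0.682 and 0.593 over the 5 in the exact permutation test. With permutation within the leading digit, the difference was −0.36 for Relb/Rela, −0.14 for Nfkb2/Nfkb1 and −0.37 for Bcl3/Nfkb1, with exact permutation adjusted p over the 5 ratios of 0.0278, 0.0370 and 0.0370. Without mouse 311 the Tnfaip3/Rela difference was −0.29 with an adjusted p over the 5 of 0.0433 in the exact permutation test, so 1 mouse decides this value.

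Against the Con group, the Ade + IMC kidneys still had higher levels of all 10 genes. The median fold change was 3.18, from 1.63-fold for Rela to 5.82-fold for Bcl3, and 10 of 10 were called by edgeR (adjusted p from 9.66e-07 to 6.27e-05), where 30.9% of 14578 genes tested were called higher. No Ade + IMC mouse overlapped the Con mice for any of the 10. Bcl3 was at 22.9 to 46.0 CPM (median 38.9) in the Ade + IMC mice, 36.0 ± 10.2 CPM on average against 6.08 ± 1.32 CPM in Con. Relb was at 28.0 to 50.9 CPM (median 46.0), 3.80-fold above Con, and Tnfaip3 at 21.3 to 60.5 CPM (median 36.0), 3.22-fold above Con. This comparison uses the same Con mice as that of the Ade group, so the values are not independent. Within the first digits 30 of 30 differences from Con were above 0, from 0.43 to 3.06 log2 units. In the same comparison edgeR called higher all 5 leukocyte, 6 macrophage, 6 T cell and 5 fibroblast markers, and also all 4 B cell and 2 neutrophil markers tested and 3 of 4 plasma cell markers. All 7 proximal tubule and 3 of 6 other nephron markers were called lower, as were 32.3% of all genes. Of 5 endothelial markers 1 was called higher and 1 lower, and 2 of 2 fat cell markers tested were called higher. The part of these cell types in the higher levels of the 10 genes was not tested.

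**Figure D5:**
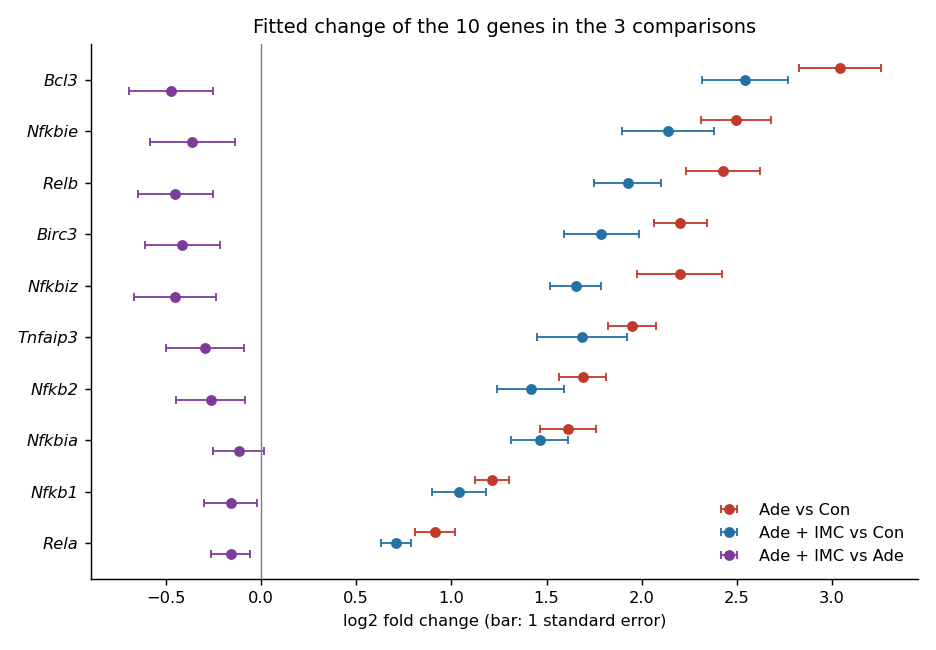
Fitted log2 fold change with 1 standard error of the 10 genes in the Ade vs Con and Ade + IMC vs Con comparisons (edgeR) and the Ade + IMC vs Ade comparison (limma), ordered by the Ade vs Con change. Both adenine-fed groups lie far above 0 with Bcl3 highest and Rela lowest, and the Ade + IMC vs Ade values lie between −0.47 and −0.12.

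Of the 57 other pathway genes, 0 were called between Ade + IMC and Ade by limma (0% of all genes tested), and 42 had a fitted log2 fold change below 0, where 48.4% of all genes had. Of 34 textbook targets 0 were called and 25 were fitted below 0. With the block for the leading digit, limma again called 0 of the 57 pathway genes but 3 of the 34 targets, all lower in Ade + IMC, where 0.408% of all genes were called lower. They were the adhesion molecules Vcam1 (0.49-fold, limma adjusted p = 0.0426) and Icam1 (0.71-fold, limma adjusted p = 0.0627) and the receptor Tlr2 (0.62-fold, limma adjusted p = 0.0627), named here after their values were seen. Ikbke was at 38.2 ± 12.8 CPM in the Ade + IMC mice (0.80-fold, limma adjusted p = 0.798), Nfkbid at 11.2 ± 3.58 CPM (0.87-fold, limma adjusted p = 0.905) and Lcn2 at 235 ± 96.9 CPM (0.66-fold, limma adjusted p = 0.774). Ltb was more variable in the Ade + IMC group (25.5 ± 22.3 CPM), with up to 604 counts in 1 mouse.

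Within groups the 10 genes varied together. With the group means removed from log2 CPM, the Pearson correlation over 17 mice was above 0 in 45 of 45 pairs of genes, from 0.36 (Nfkb1 with Nfkbiz) to 0.94 (Nfkb1 with Nfkb2), with a median of 0.69. Without mice 311 and 412, which lay farthest from the median of Tnfaip3, the median was 0.70 and the lowest value 0.32. For Tnfaip3 the median correlation with the 14602 other genes tested was −0.05. The values of a mouse share its library, its depth and its mix of cells.

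The genes outside the 10 with the pattern most like that of Tnfaip3 were Rnf19b, a ubiquitin ligase (r = 0.94), Tnfrsf9, a costimulatory receptor of T cells (r = 0.92), Mcl1, an anti-apoptotic protein (r = 0.91), Slc7a5, an amino acid transporter (r = 0.91), and Rrm2, a subunit of ribonucleotide reductase (r = 0.90). Spearman's rho was 0.68 to 0.86 for these 5 genes, and Pearson's r without mice 311 and 412 was 0.69 to 0.85. Between the 10 genes, Tnfaip3 was most like Nfkb2 (r = 0.89) and least like Nfkbiz (r = 0.47), but this order rests on the same mice. Without them Relb was the most like it (r = 0.85) and Bcl3 the least (r = 0.45), with Nfkb2 at 0.70 and Nfkbiz at 0.79.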

How the data were processed

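Whole-kidney RNA-seq of 17 mice was analysed. The study's methods name FastQC, the STAR aligner with mm10 for single-end reads, and DESeq2, while the submitters' processing notes list Trimmomatic 0.39, FastQC 0.11.8, Bowtie2 2.2.5, HTSeq 0.9.1 and DESeq2. Which aligner made the files and whether strand was used is not given in the sources used here. The authors deposited raw counts per Ensembl gene of the Con and Ade mice (21004 genes). A second deposited table holds, for the 6 Ade and 6 Ade + IMC mice, a signal in which the authors divided each count by a DESeq2 size factor (21287 genes). A table of the authors' own comparison holds their fold changes and p-values. Only its gene symbols were used here.

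In the lowest mouse 100% of the normalized values above 0 were a whole number of reads (within 1e-06), and 0 of 123804 values recovered for the Ade mice differed from the raw counts. Mice of a group always differed by more than counting noise (lowest chi-square per degree of freedom 4.21). Ade vs Con and Ade + IMC vs Con were tested by edgeR 4.0.16 (quasi-likelihood, TMM, its filter on low counts) on counts, with recovered reads for the Ade + IMC mice. Ade + IMC vs Ade was tested on log2(normalized count + 1) by limma-trend (3.58.1), keeping genes whose mean was at least 10. Calls are Benjamini-Hochberg adjusted p below 0.1 over all genes tested, as in the study's methods. Ratios used log2(CPM + 0.5) and exact permutation over mice, also called at 0.1 (adjusted over 10 ratio tests or, added after seeing the data, over the 5 of Ade + IMC vs Ade). For correlations a prior count of 2 was added before log2 CPM. R was 4.3.3. The tests were tested on simulated data.

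The 10 genes, the other gene lists and the ratio pairs were chosen with earlier results of these data known. Besides the 10 genes, the text names per list the called genes with the 2 largest rises and 2 largest falls in Ade vs Con, and the 5 genes most like Tnfaip3. The result of 1 gene that this rule names is not reported here. Cell type lists were read as summed CPM. Alternatives were DESeq2 1.42.0 or edgeR as the tool, the scaling, the low-count filter, the pseudocount, 1 fit of all 17 mice, a block for the mouse number's leading digit, a threshold of 0.05 and each mouse left out. With a total of at least 5444833 counts, 3 counts correspond to at most 0.551 CPM, which covers counting error only.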

Additional observations from a re-analysis of the deposited data

Results flagged for a closer look

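Each of the 10 genes and 5 ratios was checked in each of the 3 groups for a mouse whose gap to the nearest other mouse, divided by the range of the group, lay above Dixon's 95% critical value for a group of that size. This value is set so that chance passes it in about 1 in 20 groups, and 2 of the 45 checks made passed it. Nfkbie was at 11.17 CPM in Con mouse 302, with the other 4 Con mice at 7.18 to 7.77 CPM, and the gap was 85.1% of the range. Tnfaip3 was at 31.383 CPM in Ade mouse 407, with the other 5 Ade mice at 41.2 to 45.7 CPM, and the gap was 68.6% of the range. The gaps of Ade + IMC mouse 311 for Tnfaip3 (59.1% of the range) and for log2 Tnfaip3/Rela (60.5%) did not pass. Both Nfkbie and Tnfaip3 were called higher in Ade than in Con kidneys with either mouse left out.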

How the results depend on the processing

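All 10 genes were called higher in Ade vs Con and in Ade + IMC vs Con under every alternative run (DESeq2, 2 other scalings, no filter, 1 fit of 17 mice, the block, the threshold of 0.05 and each mouse left out). In Ade + IMC vs Ade the count of called genes was 0 under the alternatives run other than the block, with which it was 3. The sign of the 10 fitted changes was kept in each comparison and alternative. Without each mouse in turn, the log2 Relb/Rela difference between Ade + IMC and Ade was −0.36 to −0.22 (adjusted p 0.0289 to 0.170 by exact permutation), Nfkb2/Nfkb1 −0.143 to −0.0726 (0.0703 to 0.368), Bcl3/Nfkb1 −0.38 to −0.22 (0.0703 to 0.266), Tnfaip3/Rela −0.286 to −0.0417 (0.0144 to 0.825) and Nfkbia/Rela −0.02 to 0.10 (0.334 to 0.944). Nfkbia/Rela turned its sign without Ade + IMC mouse 311 (−0.022 against 0.042). Those p-values are adjusted over 10 ratio tests, 5 of which are the Ade against Con ratios whose direction the choice of pairs fixed. Including those 5 lowers the values. Without Ade mouse 407, Relb/Rela had an exact permutation adjusted p of 0.0289 over 10 and 0.0866 over the 5 alone. Without Ade + IMC mouse 311, Tnfaip3/Rela had 0.0144 and 0.0433. Adjusted over the 5 ratios of this comparison alone, chosen after seeing the data, Relb/Rela (−0.29, exact permutation adjusted p = 0.233) no longer passed. With permutation within the first digit, Relb/Rela (−0.36, exact permutation adjusted p = 0.0231 over 10 and 0.0278 over 5) passed the threshold. Nfkb2/Nfkb1 (−0.14, 0.0238 and 0.0370) and Bcl3/Nfkb1 (−0.37, 0.0278 and 0.0370) also passed it. The causes were not tested. No paired analysis was possible because mouse numbers differ between groups. With 5 to 6 mice a group, the smallest exact permutation p was 0.00216 when the digit was not used. Within the first digit there are fewer ways to permute the mice, so the smallest possible p is larger. Relb/Rela had an exact permutation p of 0.00556 there. The 95% intervals of the IMC comparison reach down to 0.52-fold (Bcl3).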
